A study of Mus musculus with 12 samples.

Results

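The genes described here are 10 of the bone morphogenetic protein (BMP) pathway: the ligands Bmp2, Bmp4, Bmp6 and Bmp7, the receptors Bmpr1a and Bmpr2, and the ID genes Id1, Id2, Id3 and Id4, which BMP signalling is known to switch on. They were taken by symbol, with every probe set that the platform annotation ties to exactly 1 gene, which gave 23 of the 34945 such probe sets and 10 of 18193 genes. Keratinocytes from the skin of C57 DBA mice were split by magnetic sorting (MACS) on CD34, a cell-surface sialomucin found on bulge cells of the mouse follicle, which gave a CD34+ and a CD34- fraction. There were 3 isolations, each pooling at least 6 mice. Each RNA was run on 2 Affymetrix whole-genome arrays, so that the 6 CD34+ and 6 CD34- arrays stand for 3 RNA samples per fraction. The labels name no treatment, transgene or age, and which 2 arrays belong to one RNA is not given.

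BMPs are secreted dimers that bind a pair of serine/threonine kinase receptors, one of type I (such as BMPR1A) and one of type II (such as BMPR2). The active type I receptor phosphorylates SMAD1, SMAD5 and SMAD9, which join SMAD4 and enter the nucleus. ID proteins are helix-loop-helix proteins without a DNA-binding region. They capture E proteins such as TCF3, TCF4 and TCF12 and keep them off E-box sequences. In the hair follicle, BMP signals are known for keeping bulge stem cells at rest, and the surrounding dermis, the dermal papilla and the bulge itself are known as sources of the ligands.

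The values were log2 RMA expression values, on which a difference of 1 is a doubling. They ran from 1.87 to 14.1 over the arrays, and the low end is marked here by the Trpn controls (3 probe sets), which read 2.31 to 2.95. RMA makes no detection call. Log2 fold changes are CD34+ minus CD34-. A probe set passed the test at a limma adjusted p under 0.05 over all 45037 non-control probe sets. That threshold was reached by 21.5% of all probe sets, with 7.64% higher and 13.9% lower in CD34+ cells. The p-values treat all 12 arrays as independent, although pairs of them carry one RNA, and so understate the uncertainty if such pairs resemble each other. In bulk RNA, fewer cells of a type and less RNA per cell cannot be told apart.

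Among the 23 probe sets, 9 passed (39.1%), 5 of them higher and 4 lower in CD34+ cells. The members were chosen with earlier results of these data known, so this share is a description only. The rises were those of Id2, Id4 and Bmp6, and the falls those of Bmp4, Bmp7 and 1 probe set of Bmpr1a. In 5 of the 23 probe sets the arrays of the fractions did not overlap, against 10.9% of all probe sets. The median log2 fold change of the 23 was -0.030, and that of all probe sets was 0.064. A further quantile normalization gave 6 higher and 3 lower. Centring each array on its median gave 5 higher and 6 lower, and moved the median of all probe sets from 0.064 to -0.038. Over all probe sets it changed the split from 3439 higher and 6265 lower to 1988 and 7455. The direction of each of the 9 calls held under both scalings.

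The upstream sequences of the 4 genes with the largest changes, Id2, Bmp6, Bmp4 and Id4, are shown because the members that rose and the one that fell can then be set side by side. Each is the 250 bases before the annotated start of the gene in RefSeq (GRCm38.p6), read 5′ to 3′ on the strand of the gene. Capitals mark GGCGCC, a GC-rich SMAD-binding sequence known from BMP-responsive genes, and GTCT or its reverse complement AGAC, the SMAD box.
Id2 (chr12:25096093-25096342, minus strand): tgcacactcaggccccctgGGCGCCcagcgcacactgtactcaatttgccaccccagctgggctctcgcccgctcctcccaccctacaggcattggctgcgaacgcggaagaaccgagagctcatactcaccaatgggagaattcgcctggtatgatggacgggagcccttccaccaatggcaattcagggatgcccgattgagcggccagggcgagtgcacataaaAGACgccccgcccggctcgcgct
Id4 (chr13:48260866-48261115, plus strand): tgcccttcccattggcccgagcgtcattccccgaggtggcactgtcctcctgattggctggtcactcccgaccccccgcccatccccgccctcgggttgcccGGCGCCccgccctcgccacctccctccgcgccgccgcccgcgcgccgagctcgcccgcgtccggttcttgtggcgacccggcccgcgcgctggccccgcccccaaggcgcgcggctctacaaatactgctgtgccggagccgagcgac
Bmp6 (chr13:38345466-38345715, plus strand): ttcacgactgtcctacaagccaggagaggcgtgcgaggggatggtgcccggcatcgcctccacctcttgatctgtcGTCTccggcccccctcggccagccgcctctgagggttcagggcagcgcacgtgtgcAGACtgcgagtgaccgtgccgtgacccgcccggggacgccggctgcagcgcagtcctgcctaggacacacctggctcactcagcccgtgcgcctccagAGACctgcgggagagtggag
Bmp4 (chr14:46390670-46390919, minus strand): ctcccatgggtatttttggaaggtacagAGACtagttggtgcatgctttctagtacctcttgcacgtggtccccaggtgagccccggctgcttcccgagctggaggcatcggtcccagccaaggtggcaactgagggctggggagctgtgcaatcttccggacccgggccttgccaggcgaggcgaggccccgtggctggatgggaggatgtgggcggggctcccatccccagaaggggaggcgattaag

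Both strands were searched for GGCGCC, for GTCT and for the E-box CANNTG. By their letters GGCGCC and GTCT cannot share a base, while CANNTG can overlap either. GGCGCC occurred 1 time in the Id2 sequence, from 231 to 226 bases before the start, and 1 time in that of Id4, from 148 to 143 bases before it. These letters were not found in the windows of Bmp6 and Bmp4. Over 27025 genes with an upstream sequence, 9.54% held GGCGCC, 83% held GTCT and 66% held CANNTG. Of the members, 7 had a sequence in the table, and Bmpr1a, Bmpr2, Id2 and Id4 held GGCGCC. The Bmpr1a window (chr14:34502547-34502796, minus strand) lies inside the annotated gene, which runs from 34411061 to 34503336, and not before its start. The GC content was 62.8% for Id2, 75.6% for Id4, 68.8% for Bmp6 and 63.2% for Bmp4, with a median of 52% over all genes. GTCT occurred 1 time for Id2, 3 times for Bmp6, 1 time for Bmp4 and 0 times for Id4. CANNTG occurred 1 time for Id2, 2 times for Bmp6, 3 times for Bmp4 and 0 times for Id4. A match describes the letters only, and no binding was measured here.

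Of the ligands, Bmp6 rose and Bmp4 fell in CD34+ cells, each without overlap of the arrays. Bmp6, a ligand of the subgroup that also holds Bmp7, read 4.71 to 7.02 (median 5.72) on the CD34+ arrays by probe set 1450759_at. On the CD34- arrays it read 3.19 to 4.13 (median 3.71), not far above the Trpn controls. The log2 fold change was 2.04 (SE 0.32, adjusted p = 5.64e-04). The corresponding 4.10-fold is read as a lower bound, since the CD34- level is close to the low end. The spread among CD34+ arrays (SD 0.82) was wider than among CD34- arrays (SD 0.31). CD34+ array 2 was the highest and array 4 the lowest, and even the lowest lay above every CD34- array.

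Bmp4, the ligand closest to Bmp2 in sequence, went the other way. Its probe set 1422912_at read 5.84 to 7.62 (median 6.63) on CD34+ arrays and 8.26 to 8.65 (median 8.59) on CD34- arrays. All 6 CD34+ arrays lay below the lowest CD34- array. The log2 fold change was -1.81 (SE 0.22, adjusted p = 1.17e-04), a 3.51-fold lower level. The CD34- arrays were tightly grouped (SD 0.16) while the CD34+ arrays spread more widely (SD 0.59), with array 1 lowest and array 4 highest. Without CD34+ arrays 1, 3 and 5 the difference was -1.46 (adjusted p = 8.28e-04).

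Bmp7 was lower in CD34+ cells by 2 of its 3 probe sets. Probe set 1435479_at read 6.49 to 7.19 (median 6.91) on CD34+ and 7.09 to 7.54 (median 7.42) on CD34- arrays, with 4 CD34+ arrays below the lowest CD34- array. Its log2 fold change was -0.48 (SE 0.13, adjusted p = 0.0213). By 1418910_at the CD34+ arrays read 4.48 to 6.09 (median 5.03) and the CD34- arrays 5.74 to 6.48 (median 6.08), a change of -0.90 (SE 0.23, adjusted p = 0.0142). Only CD34+ array 4 lay within the CD34- range there. With CD34+ arrays 1, 3 and 5 left out neither passed, and they were at -0.37 (adjusted p = 0.0678) and -0.53 (adjusted p = 0.165). Probe set 1435479_at was also lost on leaving out CD34+ array 5 (adjusted p = 0.0504), CD34- array 4 (0.0506) or CD34- array 5 (0.0506), and after a further quantile normalization it was at -0.19 (adjusted p = 0.444). The third probe set, 1432410_a_at, read 2.78 to 3.86 over all arrays, near the low end, and did not pass (-0.02, adjusted p = 0.931).

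Bmp2 did not pass. Its probe set 1423635_at read 6.73 to 8.24 (median 7.29) on CD34+ arrays and 6.97 to 8.35 (median 7.69) on CD34- arrays, so that the fractions overlapped over most of their range. The log2 fold change was -0.33, with a 95% interval from -0.91 to 0.26 (adjusted p = 0.391).

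**Figure D1:**
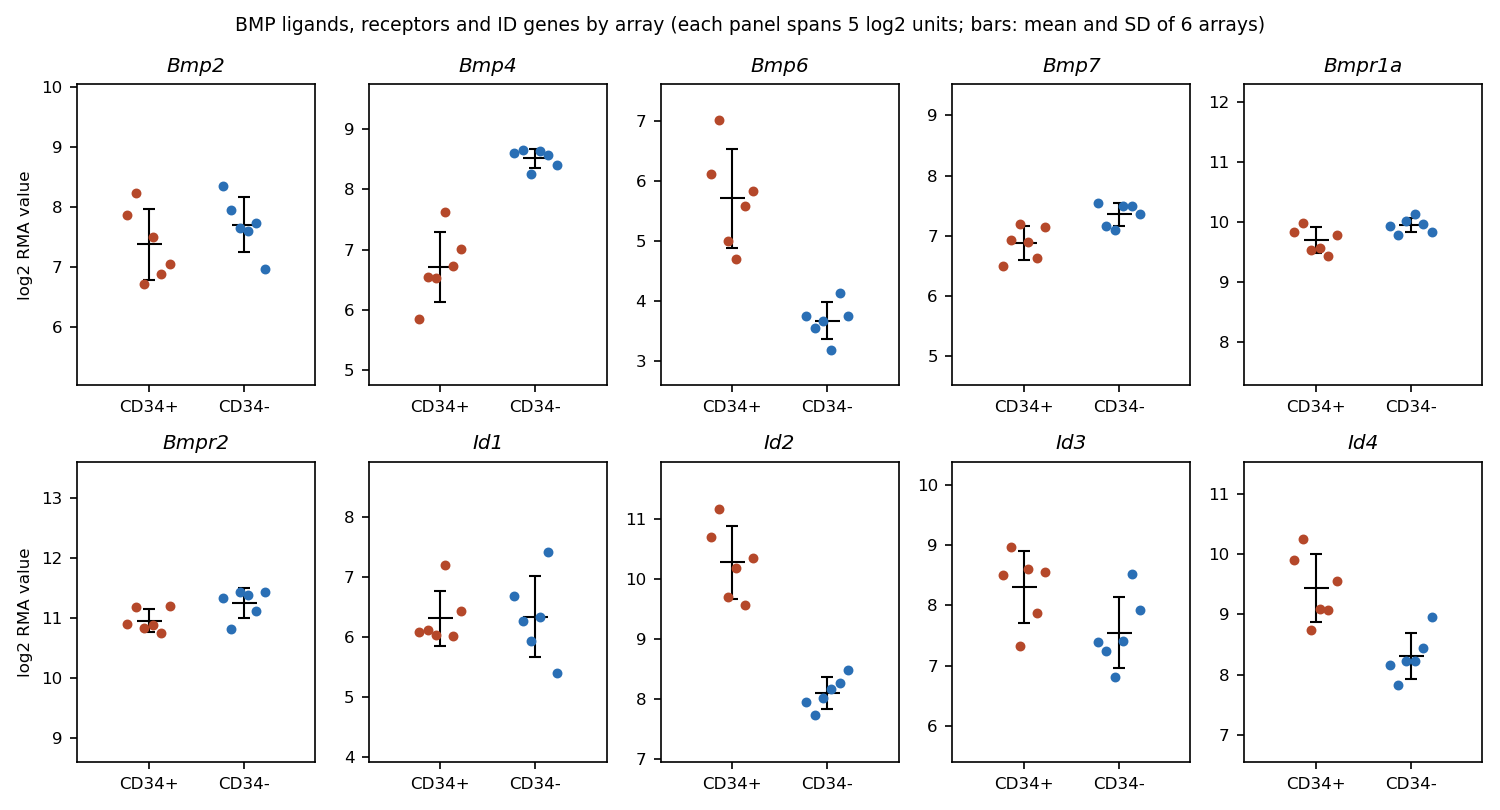
Log2 RMA values of the 10 genes by array, each at its probe set with the highest mean; points are arrays, and bars show the mean and SD of the 6 arrays of a fraction. Each panel has its own axis of equal span, so differences between fractions can be compared across panels and levels cannot. Bmp6 and Id2 are higher in every CD34+ array than in any CD34- array, Bmp4 is lower, and Id1 overlaps fully.

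Of the 9 receptor probe sets, 1 passed, a probe set of Bmpr1a, where 21.5% of all probe sets passed. For Bmpr2, the type II receptor, 0 of 3 probe sets passed by limma, and 1 had an unadjusted p under 0.05. The brightest, 1434310_at, read 10.76 to 11.20 (median 10.89) on CD34+ and 10.82 to 11.44 (median 11.36) on CD34- arrays. Only 1 CD34+ array lay below all CD34- arrays. Its change was -0.29, with a 95% interval from -0.56 to -0.02 (adjusted p = 0.114). It passed in 1 of the 12 fits that left out an array, that without CD34- array 2 (-0.38, adjusted p = 0.0306). Probe set 1419616_at spread widely, from 5.12 to 7.92 on CD34+ and 6.51 to 7.96 on CD34- arrays, with CD34+ array 3 lowest. Its interval ran from -1.27 to 0.52. Probe set 1441652_at read 3.79 to 4.58 over all arrays and was at -0.24 (adjusted p = 0.232).

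Bmpr1a, the type I receptor through which BMP signals are known to act in the hair follicle, had 6 probe sets, of which 1 passed. The brightest, 1425492_at, read 9.44 to 9.99 (median 9.68) on CD34+ and 9.79 to 10.13 (median 9.95) on CD34- arrays. Its change of -0.25 (95% interval -0.48 to -0.02) did not pass (adjusted p = 0.109). It was 0.01 after a further quantile normalization, and it passed with arrays centred on their median (-0.35, adjusted p = 0.0472) and without CD34+ array 2 (-0.31, adjusted p = 0.0426). Probe set 1425491_at was the one that passed. It read 4.56 to 5.51 (median 5.12) on CD34+ and 5.96 to 6.36 (median 6.14) on CD34- arrays, a gap with no overlap and a change of -1.04 (SE 0.14, adjusted p = 2.66e-04). That fall was as large without CD34+ arrays 1, 3 and 5 (-0.99, adjusted p = 0.00531). Probe set 1425493_at was at -0.65 (adjusted p = 0.0531) and passed in 2 of the 12 fits that left out an array, those without CD34+ array 2 (adjusted p = 0.00951) or 6 (0.0413). It also passed with the replicate block (adjusted p = 0.0367), with arrays centred on their median (0.0477) and with a filter on dim probe sets (0.0442), and was at -0.27 (adjusted p = 0.3475) without CD34+ arrays 1, 3 and 5. The other probe sets of Bmpr1a, 1425494_s_at (-0.21), 1451729_at (0.15) and 1445413_at (0.19), did not pass either.

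Id2 and Id4 were the ID genes with probe sets that passed. For Id2, probe set 1435176_a_at read 9.56 to 11.16 (median 10.26) on CD34+ and 7.73 to 8.48 (median 8.08) on CD34- arrays. The lowest CD34+ array was more than 1 log2 unit above the highest CD34- array. The log2 fold change was 2.17 (SE 0.24, adjusted p = 5.36e-05), or 4.50-fold. A second probe set, 1422537_a_at, read 5.83 to 6.69 (median 6.08) against 4.78 to 5.59 (median 5.21), again with no overlap, and rose by 1.01 (SE 0.17, adjusted p = 0.00110). The third, 1453596_at, read 3.63 to 4.22 on all arrays and did not pass (0.07, adjusted p = 0.685). Without CD34+ arrays 1, 3 and 5 the changes of the first 2 were 2.46 (adjusted p = 7.18e-05) and 0.94 (adjusted p = 0.00881). Id2 is also known from lymphoid and Langerhans cells. Of the T cell markers 7 of 7 were lower in CD34+ cells, and of the Langerhans and myeloid markers 5 of 8. Their part in the Id2 values was not tested.

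Id4 rose by 2 of its 3 probe sets. Probe set 1450928_at read 8.74 to 10.25 (median 9.32) on CD34+ and 7.83 to 8.96 (median 8.23) on CD34- arrays, and 5 of the 6 CD34+ arrays lay above all CD34- arrays. The change was 1.12 (SE 0.25, adjusted p = 0.00571). By 1423260_at the CD34+ arrays read 5.94 to 7.23 (median 6.59) and the CD34- arrays 4.69 to 5.96 (median 5.31), a change of 1.37 (SE 0.24, adjusted p = 0.00148). Here only CD34+ array 4 fell inside the CD34- range. Probe set 1423259_at overlapped over most of its range, with 7.72 to 9.28 against 7.88 to 9.28, and did not pass (0.22, 95% interval -0.38 to 0.82, adjusted p = 0.570).

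Id3 did not pass with 12 arrays, and its call turned on a few of them. Its probe set 1416630_at read 7.32 to 8.97 (median 8.53) on CD34+ and 6.81 to 8.52 (median 7.40) on CD34- arrays, with 3 CD34+ arrays above all CD34- arrays. The change was 0.76 (SE 0.30, 95% interval 0.10 to 1.41, adjusted p = 0.0922). CD34+ array 3 was the lowest of its fraction and CD34- array 5 the highest of its own. Without CD34+ array 3 the difference was 0.95 (adjusted p = 0.0267), and without CD34- array 5 it was 0.95 (adjusted p = 0.0350). Without CD34+ arrays 1, 3 and 5 it was 1.16 (adjusted p = 0.0273), and after a further quantile normalization 1.04 (adjusted p = 0.00653).

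Id1, the ID gene most often used as a BMP readout, showed no difference that passed. Its 1 probe set, 1425895_a_at, read 6.02 to 7.20 (median 6.10) on CD34+ and 5.41 to 7.42 (median 6.30) on CD34- arrays. The CD34+ range lay wholly inside the CD34- range. The change was -0.03, with a 95% interval from -0.67 to 0.61 (adjusted p = 0.948).

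**Figure D2:**
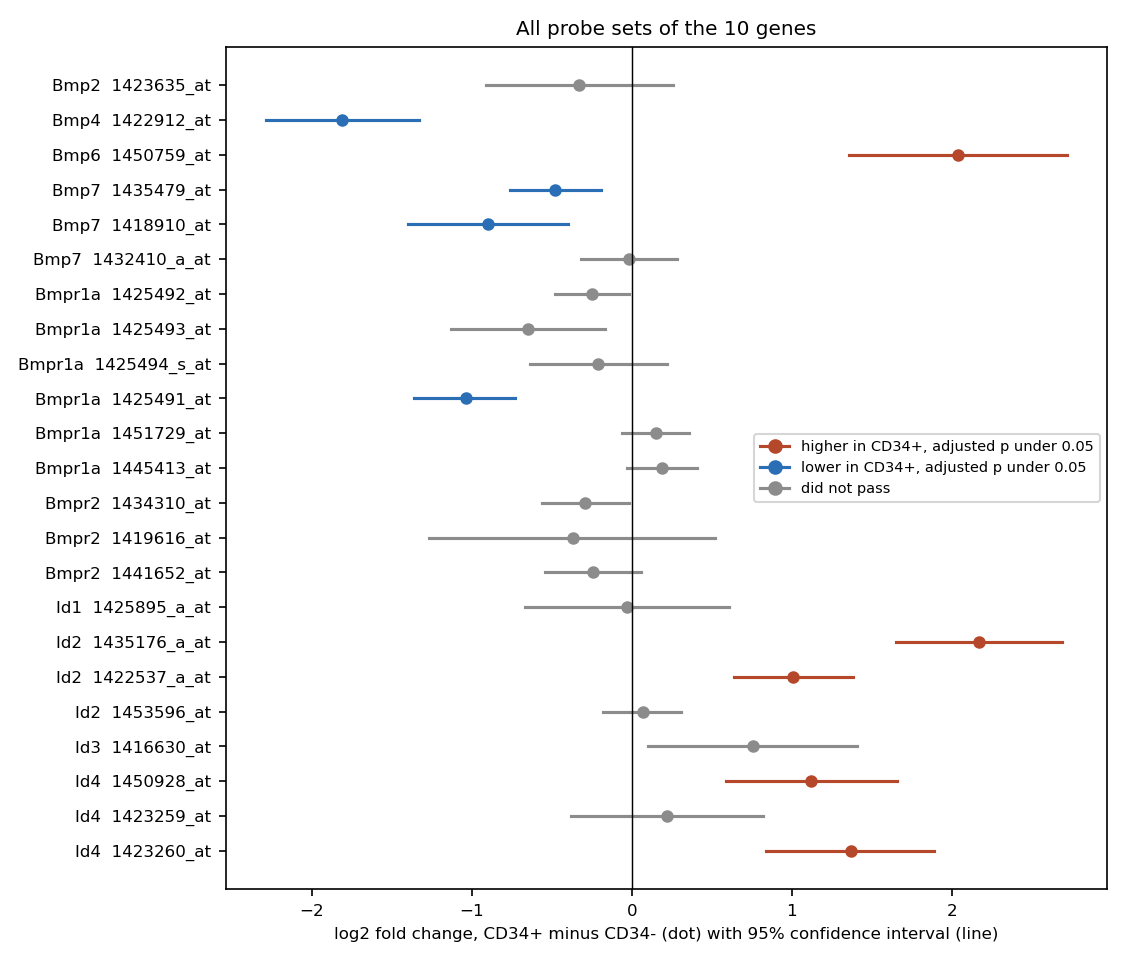
Log2 fold changes (CD34+ minus CD34-, dots) with 95% confidence intervals (lines) of all 23 probe sets of the 10 genes; colour marks the direction of those that passed. The 5 rises belong to Bmp6, Id2 and Id4 and the 4 falls to Bmp4, Bmp7 and Bmpr1a, and the Bmpr2 and Id1 intervals lie around or just below 0.

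Whether members of one role changed by unequal amounts was tested on their within-array differences, for 13 pairs at the probe sets with the highest means (two-sided exact permutation tests over all splits of the 12 arrays into 6 and 6, Benjamini-Hochberg adjusted over the pairs). In 8 pairs the changes differed when the 12 arrays were taken as separate. With array numbers as a replicate block 0 of 13 pairs passed (smallest exact permutation adjusted p = 0.0508), with 8 at an unadjusted p under 0.05. With means of arrays 1-2, 3-4 and 5-6 also 0 passed, in a design of 3 against 3 that cannot go below an exact permutation p of 0.1. The widest gap was between Bmp4 and Bmp6, at -3.85 for Bmp4 minus Bmp6 (exact permutation adjusted p = 0.00402). Bmp6 also differed from Bmp7 (2.51) and from Bmp2 (Bmp2 minus Bmp6, -2.36), and Bmp4 from Bmp2 (Bmp2 minus Bmp4, 1.48) and from Bmp7 (-1.33), each with the same adjusted p, which rests on the smallest p that the splits can give. Bmp2 and Bmp7 were not shown to differ (0.15, adjusted p = 0.684), nor were Bmpr1a and Bmpr2 (0.04, adjusted p = 0.684). Id2 changed more than Id3 (1.41, adjusted p = 0.00402), Id4 (1.05, adjusted p = 0.00402) and Id1 (Id1 minus Id2, -2.20, adjusted p = 0.00704). The differences of Id1 from Id4 (-1.15, adjusted p = 0.0750), Id1 from Id3 (-0.79, adjusted p = 0.0788) and Id3 from Id4 (-0.37, adjusted p = 0.1995) did not pass. With the next brightest probe set where a gene has one, Id2 was no longer shown to differ from Id3 (0.25, adjusted p = 0.483), and the difference of Id3 from Id4 was 0.53 (adjusted p = 0.0362), so the order among the ID genes depends on the probe set.

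Probe sets of the same gene were compared in the same way, a test chosen after their values were seen. Of 27 pairs within a gene, 16 differed in their change at an adjusted p under 0.05. All 3 pairs of Id2 did, with the brightest probe set changing by 1.16 more than the next (exact permutation adjusted p = 0.0106). In Id4, 1423259_at differed from each of the others (by 0.90 for 1450928_at minus it and by -1.14 for it minus 1423260_at, adjusted p = 0.00649 for each). For Bmpr1a 9 of 15 pairs differed, among them 1425491_at from the brightest (0.80, adjusted p = 0.00649), and for Bmp7 2 of 3. Both of those Bmp7 pairs involve 1432410_a_at, which read near the low end, and their differences of -0.46 and -0.88 were -0.17 and -0.33 without CD34+ arrays 1, 3 and 5. The other 2 probe sets of Bmp7 were not shown to differ from each other (0.42, exact permutation adjusted p = 0.132). In Bmpr2 0 of 3 pairs did, also at an unadjusted p under 0.05. The position of the probe sets in their transcripts was not used here. Array controls for Actb, which compare signal at the 3' end with that at the 5' end, differed by 3.95 to 5.65 on CD34+ and 1.82 to 3.24 on CD34- arrays. For Gapdh the gap was 3.66 to 4.63 on CD34+ and 3.10 to 3.57 on CD34- arrays. For both controls it was wider on every CD34+ array than on any CD34- array. The part of this gap in these differences, and in the calls between the fractions, was not tested.

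**Figure D3:**
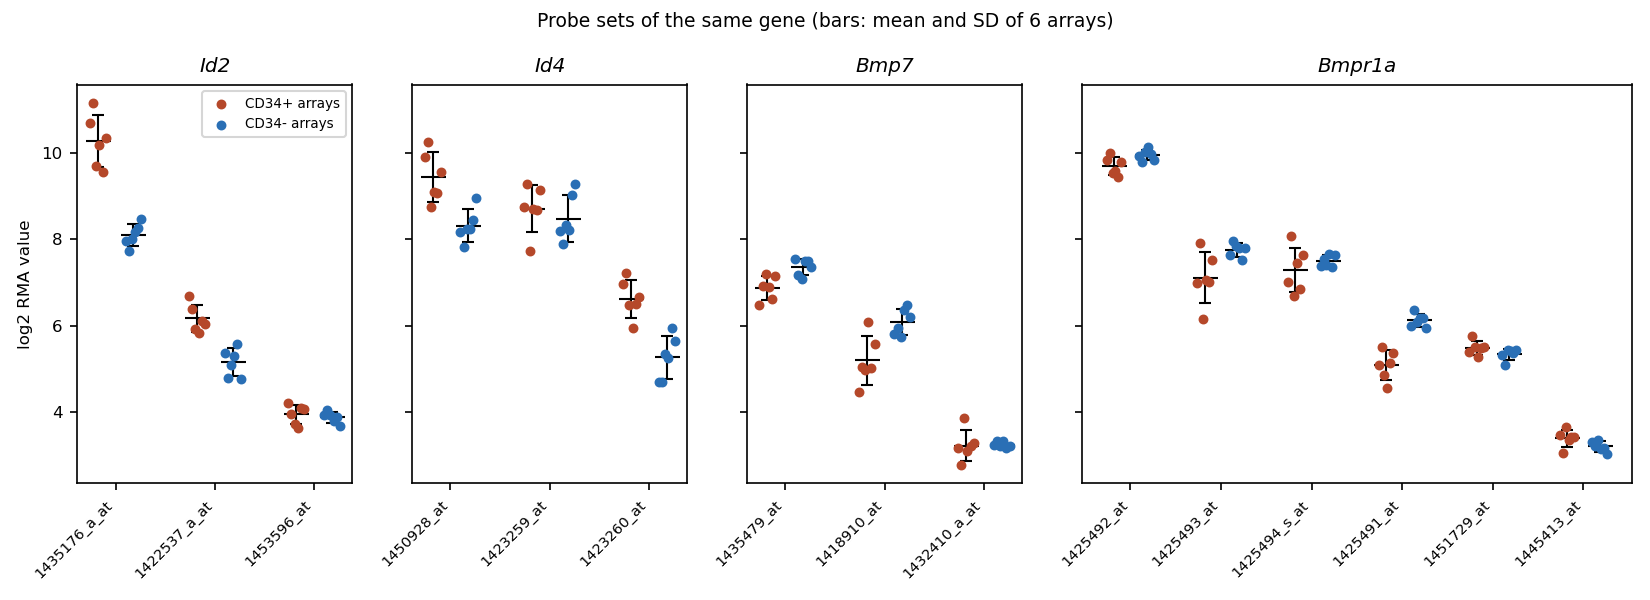
Log2 RMA values by array for each probe set of Id2, Id4, Bmp7 and Bmpr1a, ordered by mean level; points are arrays, and bars show the mean and SD of the 6 arrays of a fraction. The fractions separate in 2 of 3 Id2 probe sets and in 1425491_at of Bmpr1a, and they overlap in all others shown, among them every probe set of Id4 and Bmp7.

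The fractions and their markers bear on these values as follows. Cd34 itself read 9.14 to 10.58 on CD34+ and 2.95 to 3.71 on CD34- arrays. The 9 keratinocyte markers averaged 11.08 to 11.81 on CD34+ and 11.70 to 12.23 on CD34- arrays, and 5 of them were lower and 0 higher, Krt14 (-1.37), Itgb4 (-1.18), Krt5 (-1.04), Itga6 (-0.82) and Trp63 (-0.42). The bulge markers other than Cd34, on which the cells were sorted, averaged 7.34 to 9.56 and 4.34 to 4.68, with 9 of 9 higher. Of the dermal fibroblast markers, 5 of 11 were higher in CD34+ cells, with averages of 5.51 to 6.92 against 4.54 to 5.44. Of the dermal papilla markers, 3 of 10 were higher and 1 lower, with averages of 3.94 to 4.20 against 3.56 to 3.75. They included Wif1 (3.33), which is also in the bulge list, and without it 2 of 9 were higher and 1 lower, with averages of 3.75 to 4.07 against 3.65 to 3.86. Hhip (1.03) and Fgf7 (0.34) were higher, Rspo3 was lower (-2.02), and Corin and Sox2 had means within the Trpn range in both fractions. T cell markers were lower in 7 of 7 (5.33 to 6.44 against 7.26 to 8.32) and Langerhans and myeloid markers in 5 of 8 (5.86 to 6.05 against 6.38 to 7.15). Melanocyte markers had 2 of 7 higher, Mitf (3.13) and Sox10 (0.49), and 1 lower, Tyrp1 (-0.67), with averages of 5.43 to 5.86 against 5.10 to 5.43. Dct (-0.36), Tyr (0.40), Pmel (-0.26) and Mlana (-0.00) did not pass, and no average without Mitf was taken. Smooth muscle markers had 1 of 5 higher (4.36 to 5.52 against 4.37 to 4.90), and endothelial markers 0 of 8 by limma (2 at an unadjusted p under 0.05, 3.53 to 3.86 against 3.45 to 3.56). The SD over probe sets was 1.92 to 2.07 on CD34+ arrays 1, 3 and 5, which stood apart in this, and 2.19 to 2.32 on the other 9 arrays. On CD34+ arrays 2, 4 and 6 alone, dermal fibroblast markers averaged 5.51 to 6.13, smooth muscle markers 4.36 to 4.62 and keratinocyte markers 11.48 to 11.81. The bulge markers, here with Cd34, averaged 8.79 to 9.66 there and 7.52 to 9.66 on all 6 CD34+ arrays. The remainder of these CD34+ ranges came from arrays 1, 3 and 5, while the dermal papilla range was the same without them. The part of other cell types in the BMP and ID values was not tested.

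Further genes of the pathway were counted by role, each at its probe set with the highest mean. Of 65 measured genes in 8 lists, 15 rose and 9 fell (36.9%), where 25.2% of all genes passed, 7.73% higher and 17.5% lower. Because the lists were chosen with earlier results of these data known, the 2 shares are a description and no test of an excess. The 15 include Smad1, of which another probe set passed in the opposite direction. Their median log2 fold change was 0.17, and that of all genes was 0.040. Of 7 other BMP ligands, 0 passed by limma, with 2 at an unadjusted p under 0.05, and their median was 0.20. Several read not far above the Trpn controls in both fractions, among them Gdf5 (means 3.00 against 3.02), Bmp5 (3.39 against 3.10) and Bmp10 (3.57 against 3.36). Gdf2 was the brightest (6.04 against 5.88). At such low signal a change could be missed, and expression of these ligands is not shown. With means of arrays 1-2, 3-4 and 5-6, Bmp5 passed (adjusted p = 0.0485). Bmp3, Gdf6 and Gdf7 were not analysed here.

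Of 10 other receptors and co-receptors, 1 rose and 1 fell. Rgmb, a membrane-anchored BMP co-receptor, fell by 1.40 (6.49 ± 0.65 against 7.89 ± 0.32, SD over 6 arrays of 3 RNA samples, limma adjusted p = 0.00201). Other probe sets of Rgmb were at -1.74 (adjusted p = 4.33e-04) and -1.50 (adjusted p = 0.00237), and the remaining 3 did not pass. Neo1, a receptor that binds RGM proteins, rose by 0.90 (adjusted p = 0.00534), while its other 4 probe sets, at 0.09 to 0.50, did not pass.

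Among the SMAD transducers, Smad1 was at 0.54 (SE 0.18, adjusted p = 0.0455) by the brightest probe set, and 1448208_at of Smad1 passed in the opposite direction (-0.46, adjusted p = 0.0307), so no direction is given for it. The call of the brightest was lost in 9 of the 12 fits that left out an array and with means of arrays 1-2, 3-4 and 5-6 (adjusted p = 0.0910). Smad5 (-0.04, adjusted p = 0.871), Smad9 (0.24, adjusted p = 0.116) and Smad4 (-0.42, adjusted p = 0.0832) did not pass, although 1422485_at of Smad4 fell by 0.83 (adjusted p = 0.00128). Smad9 had means of 3.49 on CD34+ and 3.26 on CD34- arrays, not far above the Trpn controls, so a change in it could be missed.

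The brakes of the pathway in the cell or its membrane had 2 genes higher and 2 lower of 10. Smad6, an inhibitory SMAD that BMP signalling is known to induce, read 3.69 to 6.79 on CD34+ and 2.76 to 3.17 on CD34- arrays, a change of 2.06 (SE 0.42, adjusted p = 0.00328). Its CD34- mean of 2.93 lay within the Trpn range, which makes the change a lower bound. Bambi, a decoy receptor without a kinase, read 5.00 to 5.59 against 3.80 to 4.57 and rose by 1.23 (SE 0.14, adjusted p = 6.42e-05). Smurf1, a ubiquitin ligase for SMAD1 and SMAD5, fell by 0.90 (SE 0.23, adjusted p = 0.0141) by the brighter of its probe sets, and by 0.47 without CD34+ arrays 1, 3 and 5 (adjusted p = 0.0239). A dimmer probe set of Smurf1 was at -0.17 (adjusted p = 0.231).

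Of 13 genes listed as secreted antagonists 5 rose and 2 fell. The list also holds the membrane-bound Gas1 and Crim1, and Gas1 (1.13, adjusted p = 0.00239) was among the 5. Grem1, a cystine-knot protein that binds BMP2 and BMP4, rose by 4.37 (adjusted p = 1.59e-06), Fstl1, a follistatin-like protein, by 2.73 (adjusted p = 9.59e-04). Fstl1 spread from 4.61 to 8.03 on CD34+ arrays. Its CD34- arrays read 3.08 to 4.03, not far above the Trpn controls, so its change is read as a lower bound. Twsg1, which binds BMPs together with chordin, went the other way and fell by 1.15 (SE 0.20, adjusted p = 0.00122). The arrays of the fractions did not overlap for Grem1, Fstl1 or Twsg1, and of the other 3 probe sets of Twsg1 1 passed (-0.74, adjusted p = 0.00626).

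The other genes known as BMP targets had 4 higher and 2 lower of 11, so they did not move one way. Hoxc13, a homeobox factor of hair differentiation, rose by 2.11 (adjusted p = 2.48e-04). The AP-1 subunit Junb fell by 1.96 (SE 0.27, adjusted p = 2.68e-04), and Gata3, a factor of the inner root sheath, fell by 1.66 (adjusted p = 5.48e-04). Gata3 is also known from T cells, whose markers were lower in CD34+ cells in 7 of 7. The part of T cells in the Gata3 values was not tested.

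The E proteins, which the IDs capture, had 2 of 3 higher. Tcf4 rose by 1.14 (9.19 ± 0.42 against 8.05 ± 0.34, SD over 6 arrays of 3 RNA samples, limma adjusted p = 0.00145) by its brightest probe set, and 1416723_at of Tcf4 by 0.77 (adjusted p = 0.00467). The other 4 probe sets of Tcf4, at -0.47, 0.05, 0.10 and 0.14, did not pass. Tcf12 rose by 0.70 (adjusted p = 0.0151), with 2 other probe sets at 0.67 (adjusted p = 0.0282) and 1.51 (adjusted p = 4.64e-04) and a further 2, at 0.14 and 0.17, that did not pass. Tcf3 did not pass by its brightest probe set (-0.39, adjusted p = 0.338), and 1427764_a_at, which read 2.87 against 3.48, was at -0.62 (adjusted p = 0.00942).

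Of 7 genes tied to IDs or their partners in the cell cycle, 0 rose by limma (0 also at an unadjusted p under 0.05) and 2 fell, each gene taken at its brightest probe set. Ets2, a transcription factor that IDs restrain, fell by 1.16 (SE 0.23, adjusted p = 0.00268), and by 0.70 without CD34+ arrays 1, 3 and 5 (adjusted p = 0.0296). Cdkn1a, the p21 inhibitor that E proteins activate, fell by 0.76 (adjusted p = 0.0458), and a dimmer probe set of Cdkn1a fell by 1.42 (adjusted p = 0.00403). The brighter one was at -0.29 (adjusted p = 0.411) with CD34+ arrays 1, 3 and 5 left out, and it passed in 4 of the 12 fits that left out an array. Ets1, a relative of Ets2, did not pass by its brightest probe set (-0.59, adjusted p = 0.468), which was at -1.88 (adjusted p = 9.35e-04) with CD34+ arrays 1, 3 and 5 left out. Of the other 3 probe sets of Ets1, 1452163_at was lower (-3.26, adjusted p = 7.42e-06), 1422028_a_at was at -0.88 (adjusted p = 0.00524), and the third did not pass (0.03). Ets1 was named after its values were seen. It is also known from T cells, whose markers were lower in CD34+ cells in 7 of 7. The part of T cells in the Ets1 values was not tested.

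**Figure D4:**
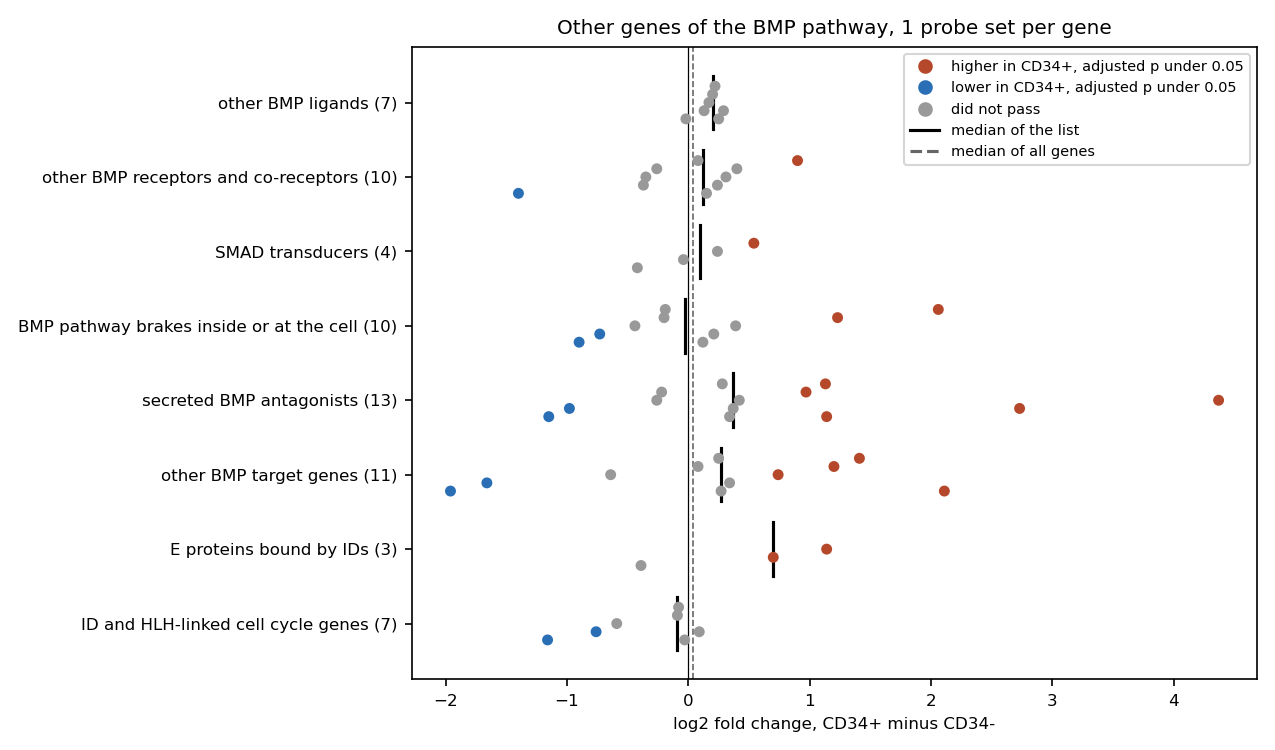
Log2 fold changes (CD34+ minus CD34-) of 65 further genes of the BMP pathway, 1 probe set per gene, by list with the number measured; colour marks those that passed, black bars are list medians and the dashed line is the median of all genes. Other ligands, several of them at low signal, cluster near 0 with none passing, the list of secreted antagonists reaches 4.37, and the target genes spread to both sides.

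The genes most alike to Id2 and Bmp6 over the 12 arrays were looked up as a description, by Pearson's r of 1 probe set per gene. The arrays share RNA and the difference between fractions, so r is high for any gene that separates them cleanly. For Id2 they were Tenm2 (r = 0.991, log2 fold change 1.63), Ltbp3 (0.991, 1.55), which binds latent TGF-beta, and Ift57 (0.987, 1.81), a protein of intraflagellar transport. For Bmp6 they were P2rx7 (0.987, 1.85), an ATP-gated channel, the heparan sulphate sulphatase Sulf2 (0.982, 2.43) and Spats2l (0.979, 0.84).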

How the data were processed

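Total RNA of CD34+ and CD34- mouse keratinocytes was hybridised to 12 arrays. The authors deposited log2 values, 1 for each probe set on each array. RMA is the method the submitters' processing notes name. The version, and whether all arrays were normalized together, are not given in the sources used here. Of 45101 probe sets, 64 controls were left out. Of the rest, 34945 had 1 gene in GEO's platform annotation (symbols brought up to date by Entrez identifier), 932 had several and 9160 none. The test was limma's (version 3.58.1, R 4.3.3; lmFit, eBayes, two-sided) on all 45037 probe sets and 12 arrays without a block, with Benjamini-Hochberg adjustment. SE and 95% intervals are limma's. The script was tested on simulated data. Text beyond the 10 genes names Cd34, up to 3 genes of each pathway list by size of change among those that passed, all SMAD transducers and E proteins, and the genes most alike to Id2 and Bmp6. Other genes and probe sets are given where they bear on a count or a call. Members and lists were chosen with earlier results of these data known. Alternatives left out arrays, blocked on array number, averaged arrays, rescaled, filtered dim probe sets, kept 1 probe set per gene, allowed an intensity trend or used a second probe set. Upstream sequences are RefSeq's (GRCm38.p6). The depth of an array is not a count, and the number of arrays limits the precision.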

Additional observations from a re-analysis of the deposited data

Results flagged for a closer look

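In 3 of 88 sets of 6 arrays (the member probe sets and the named pathway genes, by fraction), 1 array lay far from the others of its fraction, where chance gives about 1 in 20 such sets. Id1 read 7.20 on CD34+ array 4, with the next highest CD34+ array at 6.43. Probe set 1451729_at of Bmpr1a read 5.09 on CD34- array 2, below the next lowest at 5.32. Hoxc13 read 8.16 on CD34+ array 2, above the next highest at 6.57.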

How the results depend on the processing

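Of the 23 member probe sets, 9 passed with 12 arrays, and leaving out each array in turn gave 8 to 11. With 1 probe set per gene, 5 of 10 passed, since fewer probe sets were tested. In that fit 1454 of the 18193 genes were higher and 3296 lower. The count of 24 pathway genes was 22 to 26 without single arrays, and stayed within 1.5 times under every setting run. Of 13 pairs of members, 8 differed, with 8 to 10 without single arrays. Array numbers occur in both fractions, and the deviations of same-numbered arrays correlated at 0.431, -0.236, 0.214, 0.490, -0.177 and 0.404. Of 12 arrays, 6 correlated best with their own number among the 6 arrays of the other fraction. These values do not settle whether the numbers pair the arrays. The main fit took the arrays as unpaired, and the replicate block is the alternative. With the replicate block, 8 of the 9 calls held. Bmp7 1435479_at was lost (adjusted p = 0.0553), Bmpr1a 1425493_at was gained (0.0367), and Smad1 was lost (0.0635). For the pairs the replicate block (64 sign flips, exact permutation) left 0 at an adjusted p under 0.05 and 8 at an unadjusted p under 0.05. Means of arrays 1-2, 3-4 and 5-6 left 0 pairs and 0 unadjusted, because 3 against 3 cannot reach an exact permutation p under 0.05. The limma calls of all 9 probe sets held with those means.

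Differences that had not passed changed sign as follows, and the cause was not tested. After a further quantile normalization Bmpr1a 1425492_at was at 0.01, Bmpr1a 1425494_s_at at 0.06, Id1 at 0.15, Id2 1453596_at at -0.06 and Smad5 at 0.26 (adjusted p = 0.0310). Centring on the median put Id2 1453596_at at -0.04. Without CD34+ arrays 1, 3 and 5, Bmpr1a 1425494_s_at was at 0.22, Bmpr2 1419616_at at 0.17, Id1 at 0.24, Smad5 at 0.30 and Tcf3 at 0.18. Without single arrays Id1 ran from -0.22 to 0.19, Bmp7 1432410_a_at from -0.14 to 0.07, and Smad5 from -0.13 to 0.08. Signal near the Trpn controls limits Bmp7 1432410_a_at, Bmpr1a 1445413_at and Id2 1453596_at.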
